A study of Homo sapiens and Mus musculus with 7 samples.

Results

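The cytosolic ribosomal protein genes are the genes for the protein parts of the ribosome that translates nuclear mRNA. They were taken from the HEL expression table by symbol, as RPSA, RPLP0, RPLP1, RPLP2 and every RPL or RPS symbol followed by a number and an optional A, X or L. The rule gave 83 genes of 14946 symbols, 50 of the large subunit and 33 of the small subunit, and it reads symbols alone. HEL is a human erythroleukaemia cell line that carries both red cell and megakaryocyte features. The 4 RNA libraries came from HEL cells with KAP1 knocked down or not, each without hemin or after 5 days in 50 µM hemin, an iron porphyrin that drives such cells towards haemoglobin synthesis. KAP1, encoded by TRIM28, is a corepressor that KRAB zinc finger proteins bring to DNA. The columns headed Ctrl were matched to the samples labelled KAP1 WT because no other genotype remained among the HEL samples, and all knockdown ratios rest on that match. How the knockdown was made, and with which control construct, is not stated in the labels, and all groups are the same line. With 1 library per group, no ratio below has a replicate check. The mouse bone marrow ChIP-seq samples of the series were not used here.

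The eukaryotic ribosome has a small subunit, which decodes the mRNA, and a large subunit, which joins the amino acids. Its proteins are made in near-equal numbers, and most of their mRNAs are known to begin with a run of pyrimidines, the 5′ terminal oligopyrimidine or TOP tract, through which mTOR and the RNA-binding protein LARP1 set their translation and stability. In red cell precursors the genes are known above all from Diamond-Blackfan anaemia, in which loss of a copy of one ribosomal protein gene impairs red cell production.

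The sequences at the start of the transcripts show that tract, which the rule for choosing the genes did not use. A TOP-like start was searched as a C lying at most 3 bases from the annotated start and followed by at least 5 bases that are each C or T, on the transcribed strand. Of the 66 genes whose symbol matched the RefSeq promoter table (GRCh38.p14), 51 or 77.3% had it. The share was 13.8% of the 8043 matched genes past the expression floor, and 8.56% of all 35116 starts in the table. With the C allowed up to 10 bases from the start, 56 of the 66 genes had it, or 84.8%, against 28.0% of all genes. Shown here are 30 bases from 8 bases before the annotated start, 5′ to 3′, with the tract in capitals. The first 5 genes were among the lowest of the knockdown without hemin, the next 3 (RPLP0, RPL36A and RPS19) were lower in both knockdown comparisons, RPS9 and RPL35 had the same kind of start but were not lower without hemin, and the last 3 are paralogues with no such start. They were chosen after their values were seen.
RPS27, chr1:153990754-153990783, plus strand: ctttcgCTCCTTTCCggcggtgacgaccta
RPL34, chr4:108620568-108620597, plus strand: tttttCTTCCTCTTCCggggacgttgtctg
RPS12, chr6:132814561-132814590, plus strand: gatgaggCCTCTTTCCCTgccgccgccgag
RPS13, chr11:17077646-17077675, minus strand: ctcgctCTCCTTTCgttgcctgatcgccgc
RPL26, chr17:8383172-8383201, minus strand: gtgtagttCTCTTCCCTTTTgcggccatca
RPLP0, chr12:120201090-120201119, minus strand: cgcgaggCCCTTCTCTCgccaggcgtcctc
RPL36A, chrX:101391003-101391032, plus strand: cgcggtttCTTTCTTTCCgcgccgatagcg
RPS19, chr19:41860247-41860276, plus strand: ccgtcgttCCCTTTCCCCTggctggcagcg
RPS9, chr19:54200850-54200879, plus strand: ttccgcgCCTCTTTCTCagtgaccgggtgg
RPL35, chr9:124861936-124861965, minus strand: cctacttCCTCTTTCCCTCggagcgggcgg
RPS27L, chr15:63157456-63157485, minus strand: tgccgagcgcagatcgcttgcagcttgcta
RPL26L1, chr5:172958721-172958750, plus strand: caggggtcggcgaacgaaacgcggagctcg
RPL7L1, chr6:42879608-42879637, plus strand: gcggcgccgtagctaggagcggacgccata

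Depth ranged from 24040571 to 42133445 reads on the transcript chosen for each gene. Levels are given as scaled TPM, that is, reads per transcript length after a common scaling for depth, with a library sum near 1000000. TRIM28 itself, a weak check of the labels here, stood at 421 in the control and 317 in the knockdown without hemin, and at 400 and 190 with hemin. Its log2 ratio was -0.41 without and -1.07 with hemin, from a row that the authors deposited as whole numbers, so its reads are not known. Whether this row carries depth as the others do is not known either, and it was scaled like them. Both its levels and its ratios carry that doubt. Of the line's markers, 10 of 10 erythroid and 5 of 5 megakaryocyte genes were in the table, with summed erythroid levels of 15120 and 56366 in the controls without and with hemin and 16915 and 68106 in the knockdown. Most of the erythroid sums came from HBG1, HBG2 and HBA1, which were higher in both knockdown libraries than in the matched controls. TFRC and EPOR were lower in both. The megakaryocyte sums, mostly ITGA2B, were 2453 and 1208 in the controls and 1512 and 1224 in the knockdown. GP1BB was higher in both knockdown libraries, and PF4 was lower without and higher with hemin. Of markers of other cells, 0 of 4 fibroblast and 1 of 4 epithelial genes were present, the latter at 0.67 or less. Of 4 B cell genes 2 were present, and their sums were 28.1 and 8.56 in the controls and 9.05 and 3.52 in the knockdown. Of 4 T cell genes 2 were present, with CD3D and CD3E absent, and their sums, mostly CD2, were 74.0 and 59.1 in the controls and 127 and 128 in the knockdown. The part of these differences in the results below was not tested.

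Ribosomal protein mRNA was a large part of the expressed mRNA, and a smaller part in both knockdown libraries. The 83 genes took 27.9% of all length-scaled reads in the untreated control and 24.2% in the control after hemin. In the knockdown they took 17.7% without and 15.8% with hemin. As shares of reads before scaling by length, these came to 10.1%, 8.96%, 6.25% and 5.63%. A gene's median level was 3259 and 2735 scaled TPM in the controls and 1654 and 1605 in the knockdown. In bulk RNA, fewer cells of a kind and less RNA per cell cannot be told apart.

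**Figure D1:**
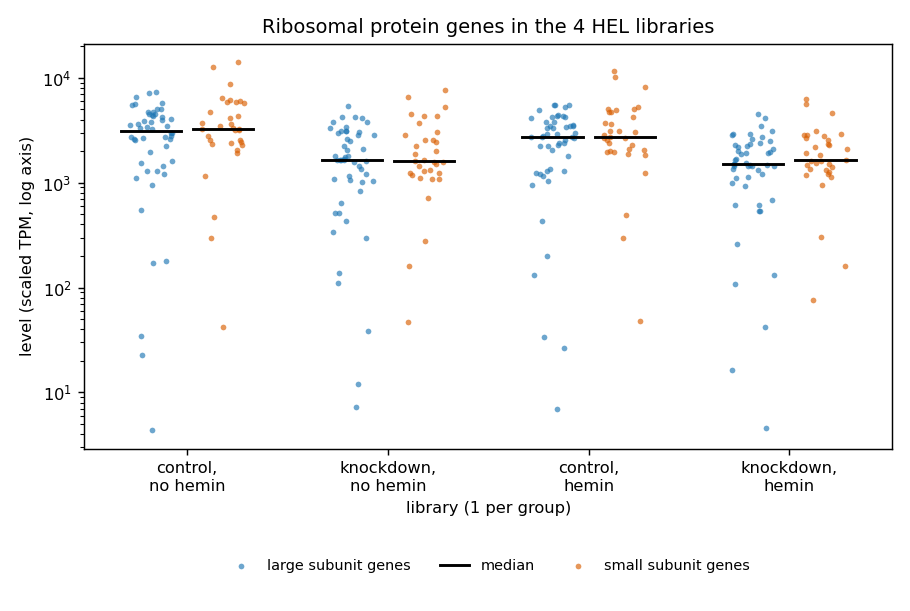
Level of each of the 83 genes (points, scaled TPM on a log axis) in the 4 libraries, large and small subunit side by side, with the median as a bar. The medians over both subunits, 3259 and 2735 in the controls, are above those of the knockdown libraries, 1654 and 1605, and RPL39L, RPL22L1, RPL26L1 and RPS27L form a tail below the other genes.

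Of the 83 genes RPS6, a small subunit protein phosphorylated by the S6 kinases, had the highest level in every library. It measured 14041 in the control and 7691 in the knockdown without hemin, and 11562 and 6320 with hemin. RPS18 came next, at 12822, 6514, 10135 and 5605 in the same order. The lowest level of the 83 belonged to RPL39L, a paralogue of RPL39 known from testis, at 4.35 to 7.29. In the controls 73 of the 83 genes exceeded 1000 scaled TPM, and in the knockdown 67 did without and 66 with hemin. A level depends on the transcript that stands for the gene: RPL27A and RPS23 were at 553 and 468 in the untreated control, and their transcripts of 4906 and 3325 nt were far longer than the median of 723 nt. Processed pseudogenes nearly identical to these mRNAs are known in number, and the labels and the table do not say how reads that fit several places were counted, so all levels carry that doubt.

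Without hemin, most ribosomal protein genes were lower in the knockdown than in the control. The median log2 ratio was -0.78, against 0.03 over the 10900 genes compared, and single genes ran from -1.83 to 0.69. At least 1.5-fold lower were 55 of the 83 genes, where 17.0% of all genes were, and 1 was as much higher, where 17.8% of all genes were. At least 2-fold lower were 23, against 6.40% of all genes. A log2 ratio below 0 was found for 77 of the 83 genes, against 48.2% of all genes. Counting intervals on the reads lay below 0 for 77 genes and above 0 for 5, with no count over all genes beside them. With a median width of 0.05 on the log2 scale, these intervals mostly repeat the sign of the ratio. They speak of counting error alone, as the reads carry no molecular identifiers and may stem from the same molecules.

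RPS27, a zinc finger protein of the small subunit, was the lowest. Its level was 5701 scaled TPM in the untreated control and 5268 after hemin, and 1601 and 2675 in the knockdown. Both knockdown values lay well below both control values. The log2 ratio without hemin was -1.83, a 3.56-fold difference, with a counting interval of -1.87 to -1.79. The next 7 were RPL37 at -1.73, RPL34 at -1.70, RPS12 and RPS3A at -1.65, RPL26 at -1.63, RPS13 at -1.52 and RPS29 at -1.48. RPL37 went from 1428 in the control to 429 in the knockdown, and RPS12, a protein of the small subunit's beak, from 4692 to 1493. At the upper end RPL39L stood at 0.69 with an interval of 0.19 to 1.31 from a level below 8. RPL8, a core protein of the large subunit, stood at 0.16, RPS27L at 0.16 and RPL26L1 at 0.15, whose interval of -0.07 to 0.36 spanned 0.

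With hemin the genes were lower by about as much but lay closer together. The median log2 ratio was -0.73, against 0.01 over the 10925 genes compared, and the interquartile range was 0.27, against 0.68 without hemin. The same range over all genes compared was 0.69 with and 0.82 without hemin. At least 1.5-fold lower were 59 of the 83 genes (12.8% of all genes), 1 was as much higher (15.0%), and 5 were at least 2-fold lower (4.11%). Below 0 were 81 of the 83 genes, against 49.5% of all genes. Intervals lay below 0 for 80 genes and above 0 for 2, again with no count over all genes beside them.

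The lowest here was RPS20, a protein of the small subunit's head, with 3093 scaled TPM in the control with hemin and 1130 in the knockdown with hemin, a log2 ratio of -1.45. RPLP0, the base of the large subunit stalk, followed at -1.23. RPL36A and RPL10A stood at -1.04, RPL31 at -1.01, RPS27 at -0.98, RPL37 at -0.97 and RPL13 at -0.96. Of the 8 lowest genes in each comparison, RPS27 and RPL37 were in both. The highest were RPS27L at 0.68, RPL26L1 at 0.32, RPL7L1 at -0.00 and RPS27A at -0.24.

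**Figure D2:**
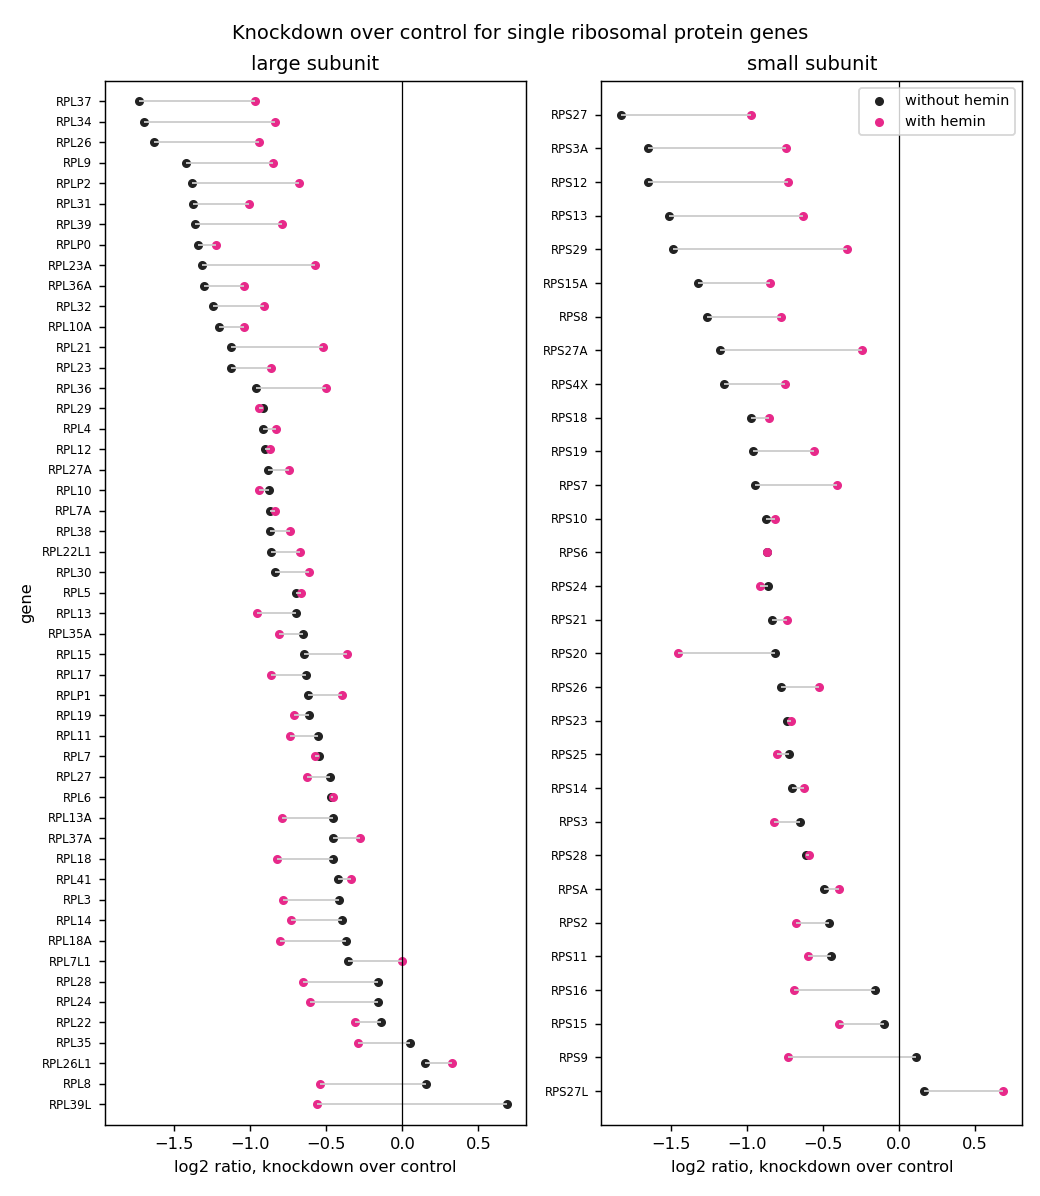
Log2 ratio of knockdown over control for the genes named on the axis, without hemin (black) and with hemin (pink), large subunit on the left and small subunit on the right, ordered by the ratio without hemin. Nearly every gene lies left of 0 in both, and the black points spread wider, from -1.83 to 0.69, than the pink ones.

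Taking the comparisons side by side, 44 of the 83 genes were at least 1.5-fold lower in both, where 6.77% of all genes were, and 77 had a log2 ratio below 0 in both, where 34.5% of all genes did. Both knockdown libraries lay below both control libraries for 75 genes, against 24.6% of all genes. Both lay above both controls for 1 gene, RPL26L1, against 27.6%. The 8 genes that were not below throughout were RPL35, RPL8, RPS9, RPS16 and the paralogues RPL7L1, RPL26L1, RPL39L and RPS27L.

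An additive fit of knockdown and hemin by limma, with the spread pooled over genes of like expression, found that 66 of the 83 genes fell with the knockdown and 0 rose, at a Benjamini-Hochberg adjusted p below 0.05 over 11183 genes. Over all genes 10.2% fell and 12.2% rose. At an unadjusted p below 0.05, 71 genes were lower and 0 higher, where 15.6% and 17.6% of all genes were. RPS27 fell by 1.40 ± 0.20 (SE) on the log2 scale (limma adjusted p = 1.63e-10), RPL37 by 1.35 ± 0.21 (limma adjusted p = 9.67e-09) and RPLP0 by 1.29 ± 0.20 (limma adjusted p = 6.76e-09). The only residual in this fit is the difference between a gene's knockdown ratios with and without hemin, not variation between replicates. The SE is mostly the pooled spread: it was 0.20 for both RPL6 and RPS29, where that difference was 0.01 and 1.14. The 17 genes that did not pass were RPL6, RPL8, RPL15, RPL22, RPL24, RPL28, RPL35, RPL37A, RPL41, RPS9, RPS15, RPS16, RPSA and the paralogues RPL7L1, RPL26L1, RPL39L and RPS27L. These calls rest on the pooling: the fit has 1 residual degree of freedom, and an ordinary linear model without pooling called 0 genes, with 20 of the 83 lower and 0 higher at an unadjusted p below 0.05, where 4.71% and 5.43% of all genes were. With no floor on expression limma called 40, and on the deposited values without scaling for depth it called 0. These counts have no share over all genes beside them.

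The medians of the subunits lay close together in both knockdown comparisons. Without hemin the median log2 ratio was -0.70 over the 50 large subunit genes, of which 31 were at least 1.5-fold lower, and -0.82 over the 33 small subunit genes, of which 24 were. With hemin the medians were -0.74 and -0.73, with 35 and 24 genes at least 1.5-fold lower. In the limma fit 38 large (76%) and 28 small subunit genes (84.8%) fell, where 10.2% of all genes did. The summed level of the large subunit was 1.16 and 1.18 times that of the small subunit in the controls without and with hemin, and 1.25 and 1.21 times in the knockdown. The difference of the medians without hemin, 0.12, was 0.02 when all transcripts of a gene were summed, which can count shared reads more than once. For hemin in the control the large and small subunit medians were -0.18 and -0.25, and in the knockdown -0.11 and -0.04. There 1 large (2%) and 7 small subunit genes (21.2%) were at least 1.5-fold higher, where 12.1% of all genes were. At least 1.5-fold lower were 6 (12%) and 5 (15.2%), where 10.8% of all genes were. This difference between the subunits was not tested.

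Of the stalk proteins, which recruit the translation GTPases, RPLP0 and RPLP2 were the lower ones without hemin and RPLP0 the lowest with hemin. RPLP0 had 5705 and 5275 scaled TPM in the controls without and with hemin and 2249 in each knockdown library, so its log2 ratios were -1.34 and -1.23. RPLP2 had 2738 and 2312 in the controls and 1048 and 1440 in the knockdown, with ratios of -1.39 and -0.68. RPLP1 had 6557 and 5507 against 4257 and 4181, with ratios of -0.62 and -0.40. The 3 genes fell in the limma fit, RPLP1 with an adjusted p of 0.042 by limma.

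RPL5 and RPL11, which bind 5S RNA and, when free of the ribosome, MDM2, had like ratios. RPL5 had 5100 and 4328 in the controls and 3142 and 2728 in the knockdown, and its log2 ratios were -0.70 and -0.67. RPL11 had 5595 and 4914 against 3814 and 2940, with ratios of -0.55 and -0.74. Both fell in the limma fit (limma adjusted p = 0.0047 and 0.0075). RPS6 had a ratio of -0.87 in both comparisons and fell (limma adjusted p = 9.14e-05). RPSA, also known as the laminin receptor precursor, had 3174 and 3019 in the controls and 2254 and 2293 in the knockdown, and with ratios of -0.49 and -0.40 it did not pass (limma adjusted p = 0.095).

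RPS27A, which is made as a fusion with ubiquitin, differed between the comparisons. It had 2817 and 2284 scaled TPM in the controls and 1242 and 1929 in the knockdown, giving -1.18 without and -0.24 with hemin. FAU, which lies outside the rule for symbols and carries a small subunit protein fused to a ubiquitin-like domain, had ratios of -0.12 and -0.22. RPL36AL, a retained copy of RPL36A, was higher, at 0.71 and 0.12. Of the 4 ribosomal protein genes outside the rule that could be tested, 0 fell and 0 rose in the limma fit (10.2% and 12.2% of all genes).

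The Diamond-Blackfan anaemia genes among the members followed the rest. Their median log2 ratio was -0.78 without and -0.74 with hemin. In the limma fit 17 of 19 fell, or 89.5%, against 79.5% of all 83 members and 10.2% of all genes. Those that did not pass were RPL15 and RPL35. RPS19, the gene in which the disease was first traced, had 3218 and 2366 in the controls and 1650 and 1605 in the knockdown. Its ratios were -0.96 and -0.56, and it fell (limma adjusted p = 0.0017). RPL26 had 3595 and 2746 against 1159 and 1428, with ratios of -1.63 and -0.94.

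Of the 6 paralogues with an L in their name, 2 fell and 0 rose in the limma fit (10.2% and 12.2% of all genes). RPS27L, known as a target of p53, was higher in the knockdown where RPS27 was lowest: it had 41.8 and 47.7 scaled TPM in the controls and 46.9 and 76.8 in the knockdown. Its ratios were 0.16 and 0.68, and it did not pass in the limma fit (adjusted p = 0.19). RPL26L1 had 34.4 and 33.5 against 38.1 and 42.1, with ratios of 0.15 and 0.32, while RPL26 was lower. RPL7L1, which acts in ribosome assembly, had ratios of -0.36 and -0.00, and RPL7 of -0.55 and -0.57. RPL22L1 was lower at -0.87 and -0.67 and fell (limma adjusted p = 0.014), with RPL22 at -0.14 and -0.31. RPL39L stood at 0.69 and -0.56, and RPL39 at -1.36 and -0.79. Without the 6 paralogues the median over 77 genes was -0.83 without and -0.74 with hemin. Of the 77 genes 64 fell, or 83.1%, where 10.2% of all genes did.

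Hemin by itself was followed by small differences in the control. Its median log2 ratio was -0.20, against -0.01 over all genes compared, and 72 of the 83 genes lay below 0, where 50.6% of all genes did. At least 1.5-fold lower were 0 genes (8.21% of all genes), and 1 was as much higher (9.25%), which was RPL39L at 0.63. The lowest were RPS19 at -0.44, RPL7L1 and RPL37A at -0.42 and RPL27 at -0.40. The limma hemin term called 0 genes in either direction, where 2.97% of all genes fell and 3.04% rose, with 10 lower and 0 higher at an unadjusted p below 0.05, where 9.43% and 9.59% of all genes were.

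In the knockdown, hemin was followed by differences in both directions, in shares near those of all genes. The median log2 ratio was -0.10, against 0.00 over all genes compared, and 50 of 83 lay below 0, where 49.9% of all genes did. On the deposited values, not scaled for depth, the median was 0.85, against 0.95 over all genes. At least 1.5-fold lower were 11 (10.8% of all genes), and 8 were as much higher (12.1%). The lower ones included RPL8 at -0.81, RPS16 at -0.79, RPS20 at -0.73 and RPS9 at -0.71. The higher ones were RPS12 and RPS13 at 0.77, RPS29 at 0.76, RPS27 at 0.74, RPS27L at 0.71, RPL34 at 0.66, RPS3A at 0.64 and RPS27A at 0.63. The interquartile range was 0.47, against 0.23 in the control, and over all genes compared it was 0.68 and 0.53. Both comparisons with the wider spread of the ribosomal protein genes, this one and the knockdown over control without hemin, share the knockdown library without hemin.

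RPS12 and RPS9 lay at opposite ends of it. RPS12 had 4692 and 4236 scaled TPM in the controls and 1493 and 2552 in the knockdown without and with hemin, so the knockdown without hemin was lowest and the knockdown with hemin lay between it and the controls. RPS9 had 2341 and 2573 in the controls and 2526 and 1547 in the knockdown, where the knockdown with hemin was lowest and the other 3 libraries lay close together. Over the 83 genes the knockdown ratio with hemin minus that without had a median of 0.09, with 51 genes above 0 and 32 below, from -1.25 for RPL39L to 1.14 for RPS29. No test of this difference was possible.

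Position was also set beside these ratios. Of the 66 genes in the promoter table, 9 lie on chromosome 19, namely RPL13A, RPL18, RPL28, RPL36, RPS9, RPS15, RPS16, RPS19 and RPS28. They were looked at after the values were seen. For hemin over no hemin in the knockdown their median log2 ratio was -0.47, against -0.02 for the 57 elsewhere. The 610 other genes on chromosome 19 had a median of -0.40 in this comparison, against 0.02 for 7161 elsewhere. In the control the same medians were -0.25 and -0.20 for the ribosomal protein genes, and -0.01 and -0.00 for other genes. For the knockdown over control without hemin the 9 genes stood at -0.46 and the 57 at -0.87, and with hemin at -0.66 and -0.74. Other genes stood at 0.22 on chromosome 19 and 0.03 elsewhere without hemin, and at -0.07 and 0.03 with hemin. The chromosome 19 pattern was therefore measured in ribosomal protein and other genes of the same libraries, and its cause was not tested.

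The pyrimidine start went with a lower median within the ribosomal protein genes, and hardly so over all other genes. Without hemin the median log2 ratio was -0.87 for the 51 genes with the tract and -0.47 for the 15 without. With hemin the medians were -0.74 and -0.46, and the 15 include the paralogues RPS27L, RPL26L1 and RPL7L1. Without hemin the 15 ran from -1.48 for RPS29, with RPL9 at -1.42 and RPS4X at -1.15, to 0.16 for RPS27L. Among genes that are no ribosomal protein gene, those with the tract had medians of -0.02 and -0.06, and those without it 0.05 and 0.03. Of other mRNAs known for a TOP tract, the 12 with this start had medians of -0.61 and -0.64, and the 2 without it -0.39 and -0.92. RPS9 and RPL35, whose tracts of 10 and 12 bases are shown above, had ratios of 0.11 and 0.05 without hemin. A match of letters is not a mapped start in these cells.

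Length and abundance were also set beside the ratios. Genes with transcripts of 500 to 700 nt had a median log2 ratio of -0.75 without and -0.74 with hemin when they were ribosomal protein genes (26 genes), and 0.39 and 0.28 when they were not (259 genes). The 8 ribosomal protein transcripts of 1500 nt or longer stood at -0.87 and -0.73. The 175 other genes whose mean level reached 440 scaled TPM, the 10th percentile of the ribosomal protein genes, had medians of 0.22 and 0.16, and 16.6% and 14.9% of them were at least 1.5-fold lower.

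Where several transcripts of a gene were listed, they mostly gave the same ratio. Of 24 genes with more than 1 mRNA, 22 had ratios within 0.2 of each other in both knockdown comparisons. The exceptions were RPL17 and RPS24. RPS24, whose mRNAs are known to be spliced alternatively near their 3′ end, had 6 transcripts with ratios from -2.31 to -0.50 without hemin. Its main transcript NM_001026 had 294 and 300 scaled TPM in the controls without and with hemin and 161 and 159 in the knockdown. NM_033022 had 266 and 167 against 53.1 and 54.9. The second was thus 90.7% and 55.8% of the first in the controls and 33.0% and 34.5% in the knockdown.

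**Figure D3:**
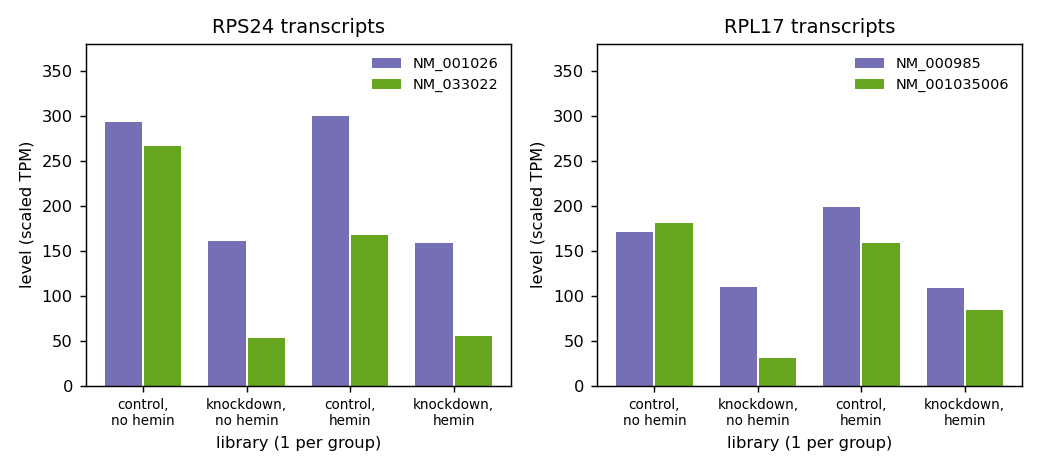
Level (bars, scaled TPM, axis from 0) of a pair of transcripts each of RPS24 and RPL17 in the 4 libraries, 1 library per bar. NM_033022 of RPS24 is near NM_001026 in the control without hemin, at 266 against 294, and far below it in the knockdown, at 53.1 against 161.

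RPL17, which lines the peptide exit tunnel, had 10 transcripts with ratios from -2.56 to 0.57 without hemin and from -1.66 to 0.45 with hemin. NM_000985, which stands for the gene here, had 171 and 198 in the controls and 110 and 109 in the knockdown. NM_001035006 had 181 and 159 against 30.3 and 84.5, and was lowest in the knockdown without hemin. The labels do not say how reads were counted for transcripts that share exons. In the knockdown without hemin the transcripts of RPL6 had 28732 and 28549 recovered reads, and those of RPLP0 32486 and 32611. Shared reads there stood on each transcript and were not divided. RPS24 and RPL17 differ from this and had low levels, 294 and 171 in the untreated control against a median of 3259. The shares of their transcripts describe the deposited values.

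Genes of the same pathway moved in part with the ribosomal proteins. Of 21 other mRNAs known for a TOP tract, mostly translation factors, 10 fell (47.6%) and 0 rose in the limma fit. Over all genes 10.2% fell and 12.2% rose. The medians of the 21 were -0.53 without and -0.62 with hemin. EIF2S3, a subunit of the factor that brings the initiator tRNA, had 228 and 265 scaled TPM in the controls and 97.7 and 90.4 in the knockdown. Its log2 ratios were -1.22 and -1.55, and it fell (limma adjusted p = 4.76e-08). GNB2L1, the ribosome-bound scaffold RACK1, had 2929 and 2884 against 1501 and 1350, with ratios of -0.96 and -1.09. EIF3L and EEF1G fell as well, by 1.14 and 0.89 on the log2 scale in the limma fit.

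Hosts of small nucleolar RNAs, which carry these RNAs in their introns, had a lower median with hemin than without. By the search above, 1 of the 7 matched host genes had a pyrimidine start. Of 8 such genes 6 fell (75%) and 0 rose in the limma fit, where 10.2% and 12.2% of all genes did, with medians of -0.74 and -1.41. GAS5 had 2500 and 3164 scaled TPM in the controls and 648 and 747 in the knockdown, with log2 ratios of -1.95 and -2.08. SNHG1 had ratios of -1.16 and -1.57.

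Of 43 ribosome assembly factors 0 fell and 6 rose with the knockdown in the limma fit, or 13.95% that rose, near the 12.2% of all genes, and their medians were 0.28 and 0.15. GRWD1, a chaperone of a ribosomal protein, had 46.0 and 38.4 in the controls and 99.3 and 59.2 in the knockdown. UTP20, NHP2 and MRTO4 also rose. Of 14 genes of RNA polymerase I and its factors 1 fell (7.14%, against 10.2% of all genes) and 0 rose, the former being TAF1D. Their medians were 0.02 and 0.08.

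Of 20 genes of the mTOR pathway and of regulators of TOP mRNAs, 4 fell (20%) and 1 rose (5%) in the limma fit. Over all genes 10.2% fell and 12.2% rose. The medians of the list were 0.07 and -0.08. DDIT4, an inhibitor of mTOR complex 1 also called REDD1, was the lowest, with 269 and 207 in the controls and 29.9 and 27.6 in the knockdown and log2 ratios of -3.15 and -2.89. SESN2, another inhibitor, had ratios of -1.67 and -1.43 and TIA1, which binds TOP mRNAs, of -1.17 and -0.30. AKT1S1, a subunit of that complex, rose, at 1.13 and 0.63. LARP1 stood at 0.07 and -0.03.

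The mitochondrial ribosomal proteins, which serve the ribosome of that organelle, had positive medians of 0.34 and 0.19, close to those of other genes with short transcripts. Of 76 genes 1 fell and 12 rose in the limma fit, or 15.8% that rose, near the 12.2% of all genes. At least 1.5-fold higher were 31.6% without hemin, against 17.8% of all genes, and 10.5% with hemin, against 15.0%. MRPL24 had 69.1 and 59.6 scaled TPM in the controls and 138 and 116 in the knockdown, with ratios of 1.00 and 0.95. MRPL48 was the one that fell, with ratios of -1.32 and -0.35. The positive medians of these lists hold after scaling for depth. On the deposited values as they stand, the median of all genes was lower by 0.58 without hemin and higher by 0.22 with hemin, and the median of the ribosomal protein genes minus that of all genes was -0.82 and -0.74.

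**Figure D4:**
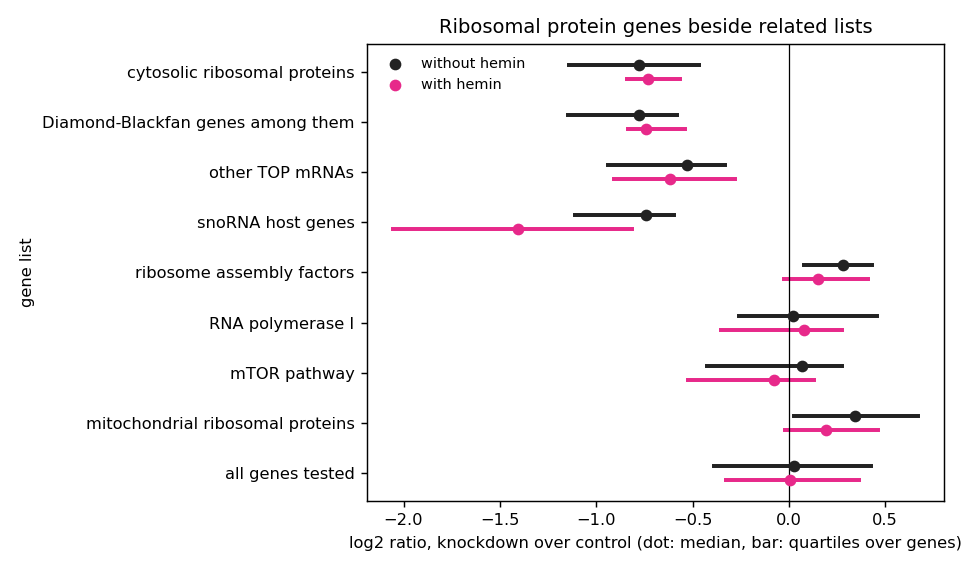
Median log2 ratio of knockdown over control (dots) with quartiles over genes (bars) for the ribosomal protein genes, related lists and all genes compared, without hemin (black) and with hemin (pink). The cytosolic ribosomal proteins at -0.78 and -0.73, other TOP mRNAs and small nucleolar RNA hosts lie left of 0, and the mitochondrial ribosomal proteins at 0.34 and 0.19 lie right of it.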

How the data were processed

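RNA-seq values were deposited per RefSeq transcript in columns headed as RPKM, per the file headers. The submitters' processing notes name Bowtie and hg19, and further steps by the authors are not stated in the labels or headers. Each row held whole multiples of a common step once the columns were divided by factors of 0.929 to 1.02, so the values carried depth. The design had assumed RPKM scaled to depth. Whole reads were recovered for 24533 of 24533 rows without whole numbers, within 0.0002 reads plus a relative 4e-09. Where the reads of a row share a factor, they come out divided by it and the counting interval is too wide. The other 5 rows, TRIM28 among them, held whole numbers and have no reads.

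The transcript with the highest mean stood for a gene, and 6 rows that carry a member's symbol but are no mRNA were set aside. Values were divided by recovered reads times a TMM (trimmed mean of M values) factor with trims of 0.3 and 0.05, computed by a script (Python 3.11.15, numpy 2.4.6). The factors were 0.965 to 1.03. Before taking log2, a pseudocount of 0.5 was added to the scaled TPM, so ratios of low genes are understated. Genes entered at 5 scaled TPM in the higher library, and all 83 members did. Counting intervals were exact conditional binomial intervals at 95%. An additive model was fitted with limma 3.58.1 (R 4.3.3), its trend option and Benjamini-Hochberg adjusted p-values. The script was tested on simulated data. The genes named were the 8 lowest and 4 highest in each knockdown comparison, the 4 lowest and 4 highest in each hemin comparison, members fixed by role, and up to 4 per related list. Some of these are not reported here. Any other named gene was chosen after its values were seen. The members and lists were chosen with earlier results of these data known.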

Additional observations from a re-analysis of the deposited data

Results flagged for a closer look

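Of the named genes whose ratios differed at least 1.5-fold between conditions, 3 had a knockdown ratio on opposite sides of 0 without and with hemin, with both counting intervals off 0, and none of these differences was tested. The knockdown ratio with hemin minus that without was -1.25 on the log2 scale for RPL39L, -0.70 for RPL8 and -0.84 for RPS9. By the same measure 12 genes had a hemin ratio on opposite sides of 0 in control and knockdown, again untested. No share over all genes stands beside these counts, and many of the 37 named genes were chosen for extreme ratios in the same comparisons. The hemin ratio in the knockdown minus that in the control was 1.14 for RPS29, 0.94 for RPS27A, 0.92 for RPS12, 0.91 for RPS3A, 0.88 for RPS13, 0.87 for RPL34, 0.85 for RPS27, 0.77 for RPL37, 0.70 for RPLP2, 0.69 for RPL26, -0.84 for RPS9 and -1.25 for RPL39L. Both differences are the same number for a gene, since each uses all 4 libraries.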

How the results depend on the processing

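No paired analysis was possible because each group had 1 library. With plain library totals the all-gene median shifted by 0.11 without and 0.10 with hemin, and the members' knockdown medians were -0.66 and -0.63; over all genes 13.3% were then lower and 22.8% higher without hemin, and 9.66% and 19.2% with hemin. On the deposited values, which carry depth, the medians were -1.38 and -0.52 for the knockdown and -0.043 and 0.85 for hemin in control and knockdown. The all-gene medians on these values were -0.55, 0.22, 0.15 and 0.95 in the same order. Counts there were 0 higher without hemin (4.08% of all genes), 29 lower with hemin (7.21%), and 0 that fell with the knockdown by limma. For hemin in the knockdown 0 were lower (0.29% of all genes) and 63 higher (77.2%). There the all-gene median shifted by 0.95, and the lowest ratio of a member in the main setting was -0.81. Members below 0 in the main setting thus turned in sign. Among the named genes, the limits set flagged this only for RPL3 (0.35), RPL39L (0.26), RPL8 (0.14), RPS16 (0.17), RPS20 (0.23) and RPS9 (0.25). With all transcripts summed the medians were -0.82 for the knockdown without hemin and -0.25 for hemin in control, and the subunit difference without hemin was 0.023. That sum can count reads on shared exons more than once. With the trend on length removed the medians were -0.94 and -0.89 for the knockdown, with 0 genes higher in each (16.7% and 14.1% of all). They were -0.17 and -0.021 for hemin in control and knockdown, with 4 lower in the knockdown (10.2% of all) and subunit differences of 0.033 and 0.056. At 2-fold, 23 and 5 genes were lower and 0 and 0 higher with the knockdown, 0 were higher for hemin in control, and 0 were lower and 0 higher for hemin in the knockdown. RPL39L was no longer counted as higher for hemin in control with a pseudocount of 1, a floor of 20 or summed transcripts (0 genes each), nor for the knockdown without hemin with a floor of 20 (0 genes). By limma 40 fell with no floor, with no share over all genes beside it, and 0 in an ordinary model without pooling. The cause was not tested, beyond what each setting changes by its construction. Equal medians, TMM without the members and the transcript with the most reads changed no such count or median beyond the limits set. Depth limits RPL39L, RPL22L1 and RPL26L1 most; their levels were below 50.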
